A study of Mus musculus with 69 samples.

Results

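The response to knockdown of *Tcl1* was measured in EB5 cells, a mouse embryonic stem (ES) cell line, on 3 of the 69 arrays of the series. These were EB5 cells that received siTcl1, an siRNA against *Tcl1*, at the doses labelled 560uM and 1120uM, and EB5 cells that received siGFP, the control siRNA, with 1 array per condition. All of the EB5 cells were grown without feeder cells in medium with LIF, were given the siRNA together with a plasmid for puromycin resistance, and were selected with puromycin from 24 h after transfection for another 24 h. Their RNA was labelled with Cy3 and hybridized to 60-mer oligonucleotide arrays with Universal Mouse Reference RNA in Cy5. A level is the log2 of a sample over this reference RNA, and a difference is the log2 level of a siTcl1 array minus that of the siGFP array. No condition had a replicate, so that no difference in EB5 cells has an error or a test, and each value describes these arrays only. The unit of the doses is in doubt, since a table of the study uses nM. The labels give no amount for siGFP, and that table heads it with the same amount as the higher dose of siTcl1. A single sequence was used against *Tcl1*, so that loss of *Tcl1* and other targets of the siRNA cannot be told apart.

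For comparison, arrays of other ES cell lines were used. ZHBTc4 cells derive from CGR8 ES cells and carry a transgene as their only working copy of Oct3/4, which Tet shuts off; 3 samples at 48 h after addition of Tet were each measured against 0 h of the same line on a dye-swapped pair of arrays. ZHTc6 cells hold a Tet-regulated Oct3/4 transgene beside a remaining Oct3/4 allele, and withdrawal of Tet overexpresses Oct3/4. Their 3 samples at 48 h after withdrawal of Tet entered the test of ZHBTc4 cells only to share the estimate of the spread. ZHBTc4 and ZHTc6 cells were also measured at 0 h against the same reference RNA as EB5 cells, on 3 arrays each. The line and the transfection differ together between these 6 arrays and the EB5 arrays, and cannot be told apart.

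*Tcl1* encodes a small protein that binds Akt kinases and raises their activity, and Akt acts downstream of PI3 kinase in growth, glucose uptake and survival. *Tcl1* is highly expressed in undifferentiated ES cells, and its level falls when Oct3/4 is shut off. The siRNA arrays address whether ES cells that lose *Tcl1* alone come to resemble ES cells that lose Oct3/4. Loss of Oct3/4 turns ES cells into trophoblast-like cells, with genes of the pluripotent state shut off and keratins and placental genes turned on.

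The ES cell markers of the list could be measured for 8 of 10 genes, and 7 of these lay above the reference RNA on all 3 EB5 arrays, led by *Sox2* and *Zfp42*. *Fgf4*, a growth factor made by ES cells, was the exception with levels of -0.37 (siTcl1 560uM), -0.33 (siTcl1 1120uM) and -0.15 (siGFP). All 6 measured fibroblast markers lay below the reference on each EB5 array, with ranges of -4.85 to -0.62 (siTcl1 560uM), -4.77 to -0.48 (siTcl1 1120uM) and -5.48 to -0.49 (siGFP). *Postn*, a secreted matrix protein, was the only one of these 6 that was higher by 2-fold or more at both doses. Of 21446 oligos, 54 (siTcl1 560uM), 59 (siTcl1 1120uM) and 49 (siGFP) had a deposited ratio of exactly 0, against 376 to 798 on the arrays at 0 h, so that the range at 0 h, given beside the EB5 levels below, is a rough scale only.

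After averaging the oligos of a gene, 8973 named genes were measured. Of these, 62 (0.691%) were higher and 26 (0.29%) were lower by 2-fold or more at both doses of siTcl1 compared with siGFP. Together with 9470 oligos that could not be given a gene name, 274 (1.49%) of 18443 features were higher and 75 (0.407%) were lower. At 1.5-fold the counts of named genes were 176 (1.96%) higher and 133 (1.48%) lower. Both differences are taken from the same siGFP array, and therefore a low or high reading of siGFP alone places a gene in these counts.

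The targeted gene was lower at both doses. *Tcl1* (chromosome 12) had levels of 2.56 with siTcl1 560uM, 2.09 with siTcl1 1120uM and 4.29 with siGFP, which is a reduction of 3.32-fold and 4.58-fold. Both siTcl1 arrays lay under the range of the 6 arrays at 0 h (3.26 to 4.78), whereas siGFP lay inside it. *Tcl1* thus stayed above the reference RNA at both doses. It was 1 of 27 measured genes of the *Tcl1* and Akt list, and none of the other 26 members moved by 1.5-fold or more in one direction at both doses. The median difference of this list was -0.02 (560uM) and 0.00 (1120uM), against -0.02 and -0.01 for all named genes. *Tcl1b5*, a relative of *Tcl1* in the mouse cluster, had levels of -0.07 (siTcl1 560uM), -0.11 (siTcl1 1120uM) and -0.12 (siGFP). *Insr*, the insulin receptor, and *Pik3cb*, a catalytic subunit of PI3 kinase, were lower by less than 1.5-fold, with differences of -0.46 and -0.32 for *Insr* and -0.25 and -0.29 for *Pik3cb*. *Gsk3b*, a kinase that Akt inhibits, had differences of 0.26 and 0.41, and *Phlpp1*, a phosphatase that acts on Akt, of 0.25 at both doses.

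*Akt1*, the kinase that *Tcl1* binds, differed between the doses. Its mean level was -3.74 with siTcl1 560uM, against -0.31 with siTcl1 1120uM and -0.63 with siGFP. An oligo of *Akt1* read -6.10 (siTcl1 560uM), -0.23 (siTcl1 1120uM) and -0.71 (siGFP), and its other oligo read -1.37, -0.39 and -0.55 in the same order. The low level was thus found on the array of the lower dose alone.

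Besides *Tcl1*, the antagonists of Nodal signalling made by ES cells were among the genes with the largest reductions. *Lefty1* (chromosome 1), a secreted inhibitor of Nodal, had levels of 1.62 with siTcl1 560uM, 0.90 with siTcl1 1120uM and 3.91 with siGFP, a reduction of 4.91-fold and 8.09-fold. *Lefty2*, its neighbour on chromosome 1 with the same role, had levels of 0.58 (siTcl1 560uM), -1.65 (siTcl1 1120uM) and 3.49 (siGFP), a reduction of 7.49-fold and 35.3-fold. Both were lower at the higher dose. *Lefty1* with siTcl1 lay under its whole range at 0 h (3.95 to 4.44), with siGFP just below it. *Lefty2* varied between 0.40 and 3.96 at 0 h, and with siTcl1 560uM it lay inside that range. Each was read by 1 oligo, and since both genes are close paralogs, hybridization of one transcript to the oligo of the other was not tested. *Notch4* (chromosome 17), a Notch receptor, had levels of 0.32 (siTcl1 560uM), 0.53 (siTcl1 1120uM) and 1.55 (siGFP), which is 2.34-fold and 2.02-fold lower and below its range at 0 h (0.93 to 2.02).

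**Figure D1:**
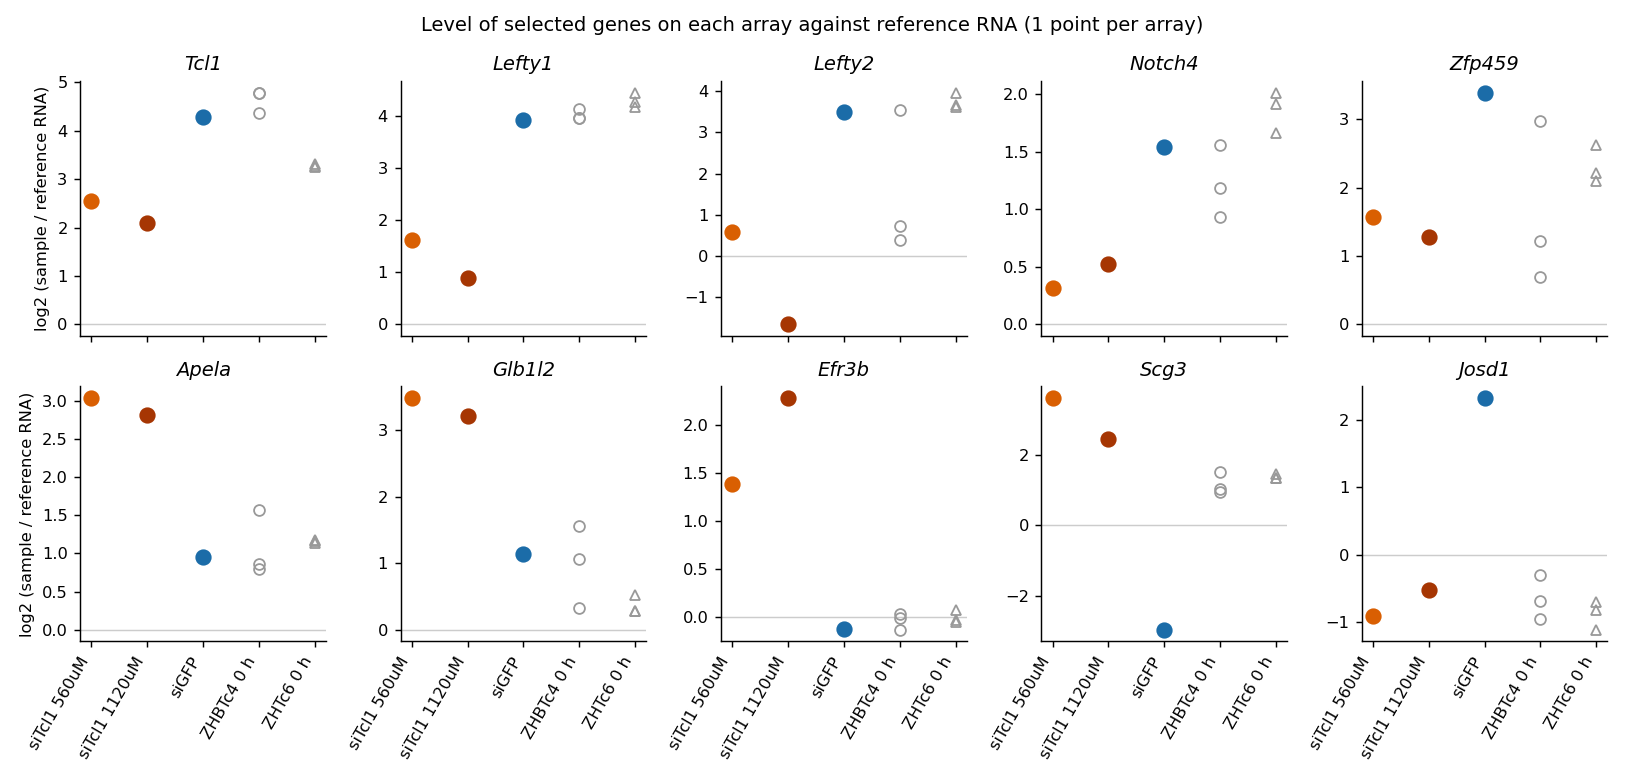
Level of 10 genes on each array as log2 of sample over reference RNA, with 1 point per array, for siTcl1 560uM, siTcl1 1120uM and siGFP in EB5 cells and for ZHBTc4 and ZHTc6 cells at 0 h (3 arrays each). *Tcl1*, *Lefty1* and *Notch4* with siTcl1 lie below all arrays at 0 h, *Apela*, *Glb1l2* and *Efr3b* lie above them, for *Scg3* siTcl1 lies above and siGFP below them, and for *Josd1* only siGFP lies outside them.

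Genes of the pluripotent state were mostly lower, by small amounts. Of 39 measured genes of this list, 32 were lower than with siGFP at both doses and 3 were higher, while 40.0% of all named genes were lower and 33.9% were higher at both doses. The median difference was -0.21 with siTcl1 560uM and -0.33 with siTcl1 1120uM, and when the arrays were scaled to a common spread it was -0.42 and -0.45. *Tcl1*, *Lefty1* and *Lefty2* were the members that passed 2-fold, and 5 members passed 1.5-fold. *Tcl1* is the target of the siRNA, and its fall is counted in each of these numbers. *Dppa3*, a maternal factor that marks the naive state, had levels of 4.43 (siTcl1 560uM), 3.94 (siTcl1 1120uM) and 5.06 (siGFP). *Otx2*, a homeobox factor of the epiblast, had levels of 2.41, 2.58 and 3.21 in the same order, and *Nr5a2*, a nuclear receptor, of 1.20, 0.78 and 1.77. The core factors stayed close to their control level. *Sox2* differed by -0.15 and -0.29, *Nanog* by -0.22 and -0.20, and *Esrrb* by -0.33 and -0.24. *Zfp42*, known as Rex1 and used as a marker of undifferentiated ES cells, was on the other side, with levels of 6.49 (siTcl1 560uM), 6.34 (siTcl1 1120uM) and 6.03 (siGFP). No oligo was named for *Pou5f1* alone, so that Oct3/4 itself was not analysed here.

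Factors of LIF signalling, which keeps mouse ES cells undifferentiated through *Stat3*, were lower in 10 of 15 measured genes and higher in 3, with medians of -0.12 and -0.20. *Il6st*, the receptor subunit gp130 that LIF uses, was the member with the largest reduction seen at both doses, with levels of -0.88 (siTcl1 560uM), -1.18 (siTcl1 1120uM) and -0.15 (siGFP). *Myc*, a target of this pathway, had levels of -2.04, -3.56 and -1.58 in the same order. *Stat3* itself differed by -0.08 at both doses.

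Trophoblast genes showed no shared direction. Of 32 measured genes, 9 (28.1%) were higher and 15 (46.9%) were lower than with siGFP at both doses, against 33.9% and 40.0% of all named genes. The medians were -0.12 (560uM) and -0.03 (1120uM), and none of the 32 passed 2-fold. *Cdx2*, the factor that specifies trophectoderm, had levels of -0.43 (siTcl1 560uM), -0.33 (siTcl1 1120uM) and -0.46 (siGFP). *Plac1*, a placental gene, had levels of -0.46, -0.40 and -0.33 in the same order. *Krt8*, a keratin of simple epithelia, was read by an oligo at -3.32, -3.13 and -3.59 and by another at -0.22, -0.16 and -0.24, with differences of 0.26 and 0.45 on the first oligo and of 0.02 and 0.08 on the other. *Tfap2c*, which acts in both ES and trophoblast cells, had the largest reduction shared by both doses, with differences of -0.68 and -0.79.

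Among regulators of the passage from G1 to S phase, 15 of 27 measured genes (55.6%) were lower and 8 (29.6%) were higher at both doses. The shares over all named genes were 40.0% and 33.9%. *Cdk2*, the kinase that drives entry into S phase, had levels of 0.27 (siTcl1 560uM), 0.18 (siTcl1 1120uM) and 0.64 (siGFP). *Rbl2*, a pocket protein that represses E2F targets, had levels of -0.96, -0.71 and -1.25 in the same order. *Cdkn1a*, the cell cycle inhibitor p21, had levels of -1.45, -1.19 and -1.46, so that only the array of the higher dose stood apart from siGFP. *Cdkn1b*, the inhibitor p27 and a known target of Foxo factors, was the only member past 2-fold, with levels of -2.62, -2.47 and -3.70, but all of these lay below its range at 0 h (-0.75 to 0.31). Genes of DNA replication and mitosis were lower in 43 (65.2%) and higher in 17 (25.8%) of 66, with medians of -0.09 and -0.14. No oligo was named for *Ccnd1* alone.

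Of the 26 lists, that of chaperones had the highest medians at both doses. The unfolded protein response senses misfolded protein in the endoplasmic reticulum (ER) through *Ern1*, *Atf6* and *Eif2ak3*, and raises the chaperones, disulfide isomerases and degradation factors of the ER. Of 29 measured genes of the list for this response and for heat shock, 27 were higher at both doses than with siGFP, 1 was lower and 1 went opposite ways. Among all named genes 33.9% were higher and 40.0% were lower at both doses. The median difference was 0.40 at 560uM and 0.56 at 1120uM, against -0.02 and -0.01 for all named genes. None passed 2-fold at both doses, and 11 passed 1.5-fold, whereas 176 of all 8973 named genes did so. In 23 of the 29 the levels were ordered as siTcl1 1120uM above siTcl1 560uM above siGFP, which was so for 1939 of 8973 named genes.

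Within this list the difference lay mainly with the 17 genes that act in or on the ER, a split made after the values were seen. All 17 were higher at both doses, with medians of 0.63 and 0.84, and 16 followed the order of the doses. *Hspa5*, the ER chaperone BiP, had levels of 0.15 with siTcl1 560uM, 0.42 with siTcl1 1120uM and -0.76 with siGFP, which is 1.88-fold and 2.27-fold higher. *Hsp90b1*, the ER form of Hsp90, had levels of 0.19, 0.45 and -0.72 in the same order, 1.87-fold and 2.25-fold higher. *Hyou1*, a nucleotide exchange factor of BiP, was 1.90-fold and 2.20-fold higher, with levels of 0.30 (siTcl1 560uM), 0.51 (siTcl1 1120uM) and -0.63 (siGFP). *Creld2* and *Manf*, small ER proteins that are released under ER stress, were 1.85-fold and 2.14-fold and 1.84-fold and 2.18-fold higher. *Dnajc3*, a co-chaperone of BiP, showed the widest step between the doses of these, with levels of -0.05 (siTcl1 560uM), 0.46 (siTcl1 1120uM) and -0.66 (siGFP). *Pdia4* and *Pdia3*, disulfide isomerases, were 1.59-fold and 1.79-fold and 1.54-fold and 1.80-fold higher, and *Calr*, a lectin chaperone, was 1.56-fold and 1.72-fold higher. *Syvn1*, a ubiquitin ligase of ER-associated degradation, was 1.56-fold and 1.75-fold higher.

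The sensors and the factor downstream of them moved little. *Atf6* differed by 0.19 and 0.08, *Ern1* by 0.08 and 0.10, and *Xbp1* by 0.05 and 0.21. Of 24 oligos for the 17 genes, 21 were higher at both doses. In 14 of the 17 genes both siTcl1 arrays lay above the range at 0 h, which was so for 2006 of all 8973 named genes. In 11 of the 17, however, the siGFP array itself also lay above that range, as it did for 2447 of the 8973. *Hspa5*, for instance, lay between -1.45 and -1.25 on the 6 arrays at 0 h. The siGFP array stood thus between the arrays at 0 h and those with siTcl1, and transfection, line and array processing were not separated in this step.

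The other 12 genes, heat shock proteins of the cytosol, nucleus and mitochondria, had medians of 0.18 and 0.23. Here 10 (83.3%) were higher at both doses, against 33.9% of all named genes, and 7 followed the order of the doses. *Dnajb1*, a heat-inducible co-chaperone of Hsp70, was the only one past 1.5-fold, with levels of 0.89 (siTcl1 560uM), 1.08 (siTcl1 1120uM) and 0.23 (siGFP). *Hspa8*, the constitutive Hsp70, differed by 0.38 and 0.21, and *Hspd1* of the mitochondrial matrix by 0.06 and 0.12.

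**Figure D2:**
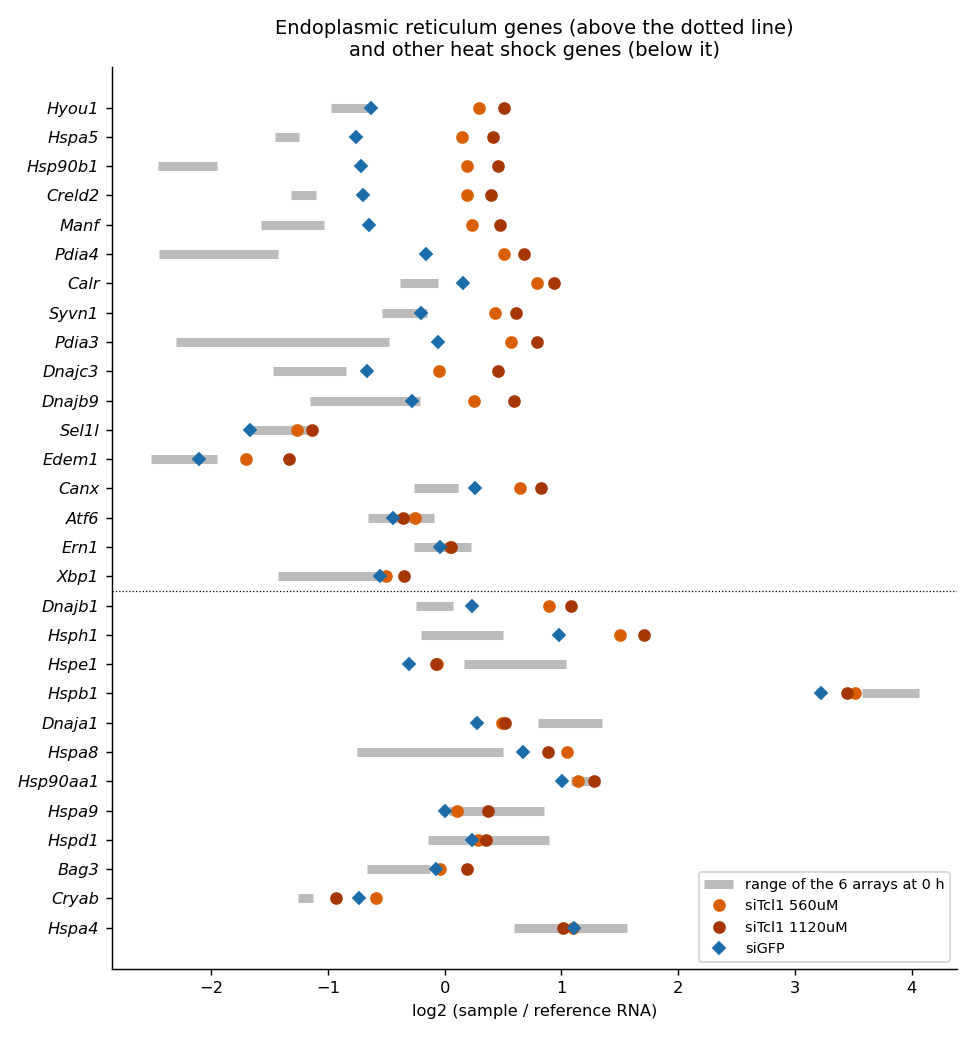
Levels of the 29 genes of the list for the unfolded protein response and heat shock, as log2 of sample over reference RNA, with siTcl1 560uM and siTcl1 1120uM as circles, siGFP as diamonds and the range of the 6 arrays of ZHBTc4 and ZHTc6 cells at 0 h as grey bars. In 16 of the 17 ER genes the levels run from siTcl1 1120uM over siTcl1 560uM to siGFP, and in 11 of them siGFP also lies above the range at 0 h.

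Some of the ER genes held a promoter element of the unfolded protein response, the same response that the list was drawn up for. The list and the element are thus not independent. The ER stress response element, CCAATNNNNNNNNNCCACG, is bound by NF-Y at its CCAAT part and by *Atf6* at its CCACG part. It was searched on both strands after the values of these genes were seen, in RefSeq promoter windows that run from upstream of each start site to just inside the transcript (build GRCm38.p6). Of the 17 ER genes, 14 had a promoter in the table and 7 of these held it. None of 8 did among the other heat shock genes, none of 49 among the genes that were higher by 2-fold and none of 21 among those that were lower. Over the whole table it stood in 39 of 32851 promoters (0.119%), which belong to 37 of 27025 genes (0.137%). At that share none would be looked for in groups of 8, 49 or 21 genes, so that these counts of none carry no weight. The sites are shown because they are what these 7 promoters have in common, each 5′ to 3′ on the strand of its gene with capitals for the letters that the motif fixes (for a site on the opposite strand, CGTGG and ATTGG).
*Hspa5*, chr2:34772021-34772047, plus strand: ttcaCCAATcggaggcctCCACGacgg
*Hsp90b1*, chr10:86705634-86705660, minus strand: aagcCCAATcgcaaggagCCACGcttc
*Hsp90b1*, chr10:86705529-86705555, minus strand: agtgCGTGGtgaggcacgATTGGtgag
*Dnajc3*, chr14:118937823-118937849, plus strand: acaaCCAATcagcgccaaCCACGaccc
*Canx*, chr11:50325796-50325822, minus strand: ttgaCCAATcaccacgctCCACGaaga
*Syvn1*, chr19:6046528-6046554, plus strand: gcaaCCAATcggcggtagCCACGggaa
*Calr*, chr8:84847071-84847097, minus strand: aacgCGTGGtcgaccctcATTGGccca
*Creld2*, chr15:88819516-88819542, plus strand: ttctCGTGGcgagcctcaATTGGtcca

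The sites lay between 44 and 212 bases upstream of the start site, and *Hsp90b1* held 2 of them. The promoter of *Hspa5* (chr2:34771840-34772139, plus strand) is given whole, since this gene had the largest difference of the list at the higher dose, with the same site in capitals.
*Hspa5* promoter: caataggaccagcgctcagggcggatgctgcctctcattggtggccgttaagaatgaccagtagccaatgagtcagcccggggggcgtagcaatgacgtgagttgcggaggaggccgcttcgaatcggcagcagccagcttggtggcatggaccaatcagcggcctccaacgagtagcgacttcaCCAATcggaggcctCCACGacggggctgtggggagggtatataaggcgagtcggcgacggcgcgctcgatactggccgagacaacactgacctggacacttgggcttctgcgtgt

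Of the 37 genes with the motif, 15 were measured, and 10 of these were higher and 4 lower at both doses. Over all named genes the shares were 33.9% and 40.0%. The 8 that are not on the list had medians of -0.06 and 0.02, and 3 of them were higher at both doses. Among these 8, *Derl3*, a channel component of ER-associated degradation that was named after its value was seen, had levels of 1.12 with siTcl1 560uM, 1.37 with siTcl1 1120uM and 0.24 with siGFP. *Tdrd9*, a helicase of the germ line, went the other way, with levels of -1.94 (siTcl1 560uM), -2.07 (siTcl1 1120uM) and -1.03 (siGFP). Genes with the motif were thus found on both sides of siGFP.

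Genes of amino acid stress, which *Atf4* raises on the branch of the unfolded protein response that slows translation, did not move with the chaperones. Of 30 measured genes, 7 were higher and 15 were lower at both doses. The medians were -0.25 at 560uM and -0.03 at 1120uM, and 23 of the 30 were higher at 1120uM than at 560uM. *Pck2*, a mitochondrial enzyme of gluconeogenesis, had levels of -2.56 (siTcl1 560uM), -2.69 (siTcl1 1120uM) and -1.73 (siGFP). *Psph* and *Shmt2*, enzymes of serine and glycine synthesis, were also lower at both doses, with differences of -0.63 and -0.66 for *Psph* and of -0.49 and -0.61 for *Shmt2*. *Atf3*, a factor induced by many stresses, was apart from siGFP at the higher dose, with levels of -2.35 (siTcl1 560uM), -1.46 (siTcl1 1120uM) and -2.51 (siGFP). *Sesn2*, *Ddit4* and *Wars* were also higher at both doses by amounts below 1.5-fold at 560uM.

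Genes of oxidative phosphorylation were lower by small amounts. Of 54 measured genes, 43 (79.6%) were lower and 7 (13.0%) were higher at both doses, against 40.0% and 33.9% of all named genes. The medians were -0.14 and -0.20. In 41 of the 54 the levels were ordered as siTcl1 1120uM below siTcl1 560uM below siGFP, which was so for 2221 of 8973 named genes. None of the 54 passed 1.5-fold. *Cox6b1*, a subunit of cytochrome oxidase, had levels of -0.07 (siTcl1 560uM), -0.24 (siTcl1 1120uM) and 0.33 (siGFP), and *Sdha* of succinate dehydrogenase had levels of 0.26, 0.05 and 0.60 in the same order. In glycolysis and glucose uptake, which Akt promotes, 15 of 26 genes (57.7%) were lower and 6 (23.1%) were higher. *Pdk1*, the kinase that closes pyruvate dehydrogenase, was next to the limit of 2-fold with levels of -0.90 (siTcl1 560uM), -1.12 (siTcl1 1120uM) and 0.04 (siGFP). *Hk2*, a hexokinase, differed by -0.54 and -0.77, *Pgk1* by -0.61 and -0.60, *Pkm* by -0.54 and -0.55, and *Ldha* by -0.36 and -0.84. *Aldoa* and *Gapdh*, which belong to the same pathway, differed by 0.10 and 0.08 and by 0.03 and 0.05.

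Lysosomal and autophagy genes were higher in 18 and lower in 4 of 30, with medians of 0.08 and 0.20. *Gabarapl1*, an autophagosome protein that Foxo factors induce, had levels of -0.84 (siTcl1 560uM), -0.71 (siTcl1 1120uM) and -1.46 (siGFP). *Ctsl* and *Ctsd*, lysosomal proteases, differed by 0.37 and 0.57 and by 0.34 and 0.49. Targets of p53 were higher in 14 (51.9%) and lower in 6 (22.2%) of 27, with medians of 0.07 and 0.26. *Mdm2*, the ubiquitin ligase of p53, had levels of 1.34 (siTcl1 560uM), 1.72 (siTcl1 1120uM) and 1.08 (siGFP). *Plk2*, *Ccng1* and *Trp53inp1*, further targets of p53, differed by 0.50 and 0.80, by 0.35 and 0.52 and by 0.32 and 0.57. Among immediate early genes 10 of 22 (45.5%) were higher and 7 (31.8%) lower. *Ccn2* and *Jun* passed 1.5-fold at both doses, with differences of 0.82 and 1.07 and of 0.70 and 0.80.

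Interferon genes and genes of the response to double-stranded RNA, which an siRNA can trigger, had medians of -0.01 and 0.06. Of 30, 13 (43.3%) were higher and 10 (33.3%) lower, against 33.9% and 40.0% of all named genes. None of the 30 passed 1.5-fold. In the small RNA machinery, which siRNA enters, *Ago1* had levels of 0.06 (siTcl1 560uM), 0.13 (siTcl1 1120uM) and 0.84 (siGFP). *Dgcr8*, a partner of *Drosha* in miRNA processing, had levels of -0.57, 0.23 and 0.85 in the same order. *Ago4*, an Argonaute protein, was higher by 2.94-fold and 3.98-fold, with levels of 0.68, 1.11 and -0.88, of which the siGFP level lay just under the range at 0 h (-0.86 to 0.48). Genes of apoptosis, of cholesterol and fatty acid synthesis and of the Foxo factors had medians between -0.14 and 0.01 at both doses, and primitive and visceral endoderm genes had medians of 0.12 and 0.14. *Dab2*, an endocytic adaptor of primitive endoderm, had levels of -0.72 (siTcl1 560uM), -0.62 (siTcl1 1120uM) and -1.12 (siGFP).

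**Figure D3:**
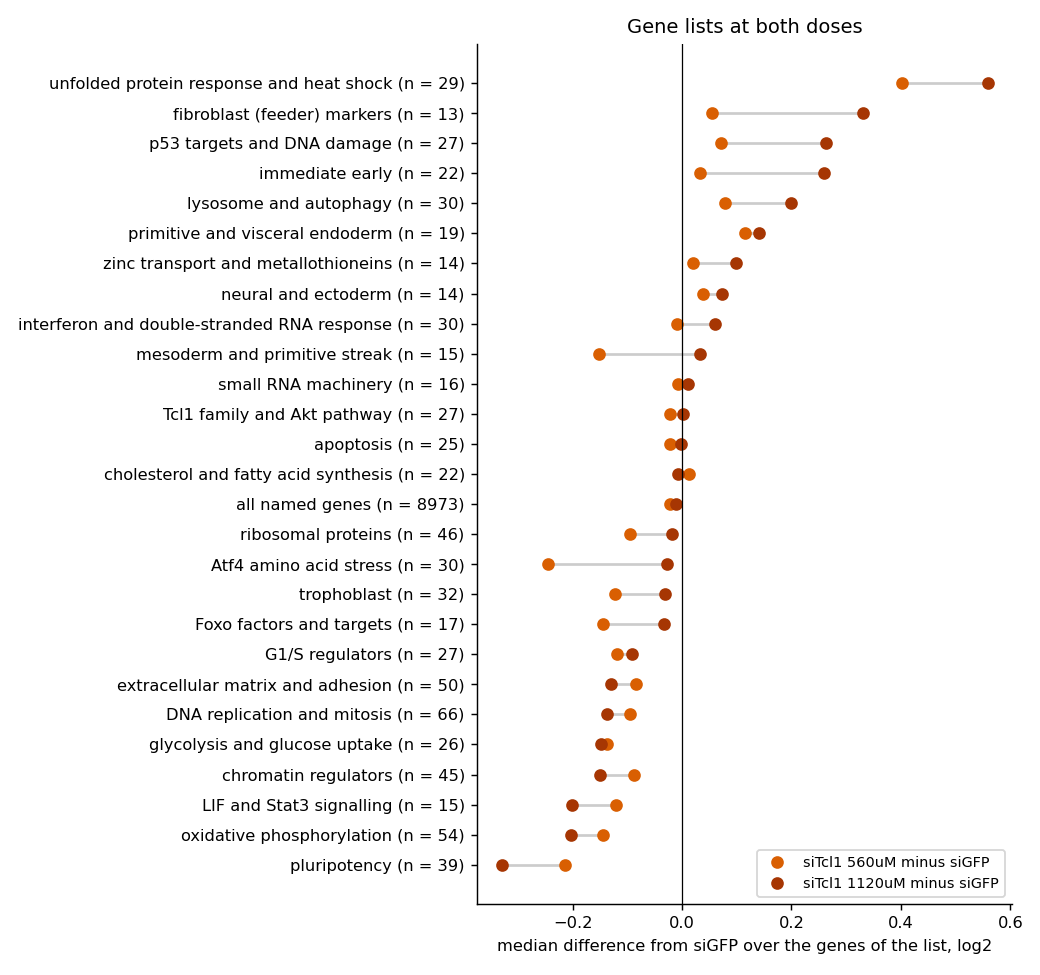
Median difference from siGFP, in log2, over the measured genes of each of 26 lists and over all named genes, with a point for siTcl1 560uM and a point for siTcl1 1120uM; n is the number of measured genes. The list for the unfolded protein response and heat shock lies highest (0.40 and 0.56) and pluripotency lowest at the higher dose (-0.33).

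The 62 genes higher by 2-fold or more had median differences of 1.55 at 560uM and 1.83 at 1120uM. The difference was larger at the higher dose in 35 of them, and in 14 of the 26 lower genes. In 53 of the 62 the siGFP array lay below the range of the arrays at 0 h, while this was so for 2090 of all 8973 named genes. In 23 of the 62 both siTcl1 arrays lay inside the range at 0 h. *Scg3*, a granin of secretory granules, had the widest gap of all, with levels of 3.62 (siTcl1 560uM), 2.45 (siTcl1 1120uM) and -2.96 (siGFP), where the arrays at 0 h read 0.96 to 1.53. *Cbx8*, a subunit of Polycomb repressive complex 1, had levels of -2.66, -0.93 and -4.88 in the same order, and the arrays at 0 h read -2.36 to -1.28. *Piwil2*, a Piwi protein of the germ line, had levels of 1.07, 0.00 and -1.92, and *Nog*, a secreted inhibitor of Bmp, of -0.27, -1.04 and -2.54. The 0.00 of *Piwil2* with siTcl1 1120uM is a deposited ratio of exactly 0, on which its difference at that dose rests. *Fgf2*, a growth factor, had levels of -0.54, 0.37 and -2.34. In all of these genes the siGFP array lay below the range at 0 h, and in each at least 1 siTcl1 array lay outside it too. Whether the low readings belong to the cells or to the siGFP array was not tested.

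In the rest of the 20 genes with the largest rise, apart from those described below, siGFP also lay below the range at 0 h. *Rcbtb2* differed by 4.01 and 3.17, *Nipa1*, a magnesium transporter, by 3.92 and 2.58, and *D4Ertd617e* by 3.05 and 2.58. *Mlx*, a partner of glucose-sensing transcription factors, differed by 2.60 at both doses, *Pde10a*, a phosphodiesterase, by 2.49 and 2.78, and *Il16*, a cytokine, by 2.53 and 2.37. *Morn1* differed by 2.12 and 2.04, *Fam174b* by 1.95 and 2.44, *Dock10* by 1.84 and 2.02, *6430548M08Rik* by 1.85 and 1.78, and *Slc8a1*, a sodium-calcium exchanger, by 1.72 and 1.85. Both siTcl1 arrays lay above the range at 0 h in *D4Ertd617e*, *Pde10a* and *Fam174b*, and below it in *Mlx*, *Il16* and *Morn1*.

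Several oligos were present for 7 of the 62 genes and for 1 of the 26. In each of these 8 genes only 1 oligo had moved by 2-fold at both doses. For *Obi1*, a ubiquitin ligase of replication origins, an oligo differed by 4.71 and 4.72 and the other by 0.26 and 0.44. For *Pcnx3*, the differences were 4.58 and 4.98 on an oligo and -0.12 and -0.10 on the other. The remaining 55 and 25 genes were read by 1 oligo each, so that they had no such check.

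Both siTcl1 arrays lay above the range at 0 h in 13 of the 62, as they did for 2006 of all 8973 named genes. In 6 of the 13 siGFP lay inside that range. How many of all named genes meet both conditions was not counted. *Apela* (chromosome 8), which encodes a small secreted peptide of ES cells, had levels of 3.04 (siTcl1 560uM), 2.82 (siTcl1 1120uM) and 0.96 (siGFP), 4.23-fold and 3.63-fold higher, where the arrays at 0 h read 0.79 to 1.57. *Aplnr*, the receptor of this peptide, was also among the 62, with levels of -0.71, 0.13 and -2.15 in the same order, but the arrays at 0 h spread from -2.49 to 1.00. *Glb1l2*, a protein of the beta-galactosidase family, had levels of 3.48 (siTcl1 560uM), 3.21 (siTcl1 1120uM) and 1.14 (siGFP), 5.06-fold and 4.19-fold higher. *Efr3b*, a membrane anchor of a lipid kinase, had levels of 1.38, 2.28 and -0.13, 2.85-fold and 5.30-fold higher, and was at -0.14 to 0.07 at 0 h. *Mgat4a*, an N-glycan branching enzyme, had levels of 1.14, 1.12 and -0.61, 3.35-fold and 3.32-fold higher. *Gm14661* and *Sec22b*, an ER to Golgi SNARE protein, made up the 6, the last with only 1 of its 2 oligos moved.

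The promoter of *Apela* (chr8:65037287-65037586, minus strand) is shown since *Apela* is an ES cell gene, and Oct3/4 binds sites of the octamer kind. It held 2 matches to the octamer-like sequence ATGCAAA, in capitals, of which that on the opposite strand reads TTTGCAT. This sequence stood in 5 of the 49 higher genes with a promoter and in 1 of the 21 lower ones, against 1416 of all 27025 genes (5.24%), and a match is not shown to be a binding site.
*Apela* promoter: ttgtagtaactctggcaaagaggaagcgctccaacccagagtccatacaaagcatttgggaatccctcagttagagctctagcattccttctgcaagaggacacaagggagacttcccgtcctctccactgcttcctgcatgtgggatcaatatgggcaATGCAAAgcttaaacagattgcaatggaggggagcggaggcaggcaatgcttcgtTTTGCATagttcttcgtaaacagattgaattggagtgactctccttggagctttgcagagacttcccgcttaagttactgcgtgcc

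Among the 26 lower genes, both siTcl1 arrays lay below the range at 0 h in 17, as they did for 1817 of all 8973 named genes. In 11 of the 17 siGFP lay inside that range, a share not counted over all named genes. These 11 include *Tcl1* and *Notch4*. *Magi3*, a scaffold protein of cell junctions, belonged to these, with levels of -0.03 (siTcl1 560uM), -0.06 (siTcl1 1120uM) and 1.81 (siGFP), against 0.04 to 2.75 at 0 h. *Ahr*, the aryl hydrocarbon receptor, had levels of -2.39, -2.06 and -0.80 in the same order, against -1.66 to 0.00 at 0 h. *Myog*, a factor of muscle differentiation, had levels of -3.45, -2.81 and -1.06. In 7 of the 26 the siGFP array lay above the range at 0 h. These hold *Josd1*, a deubiquitinase, with levels of -0.90, -0.51 and 2.32 (0 h, -1.11 to -0.29). *Pcca*, a subunit of propionyl-CoA carboxylase, had levels of 0.46, 0.68 and 2.52 (0 h, -0.08 to 0.78). *Fasl*, the ligand of the death receptor *Fas*, had levels of -0.14, 0.10 and 2.18 (0 h, -0.35 to 0.28). For *Josd1*, *Pcca* and *Fasl* both siTcl1 arrays lay inside the range at 0 h. *Poglut2*, a glycosyltransferase of the ER, differed by -1.69 and -1.86, *Zfp459*, a zinc finger protein, by -1.83 and -2.11, and *Pou6f1*, a POU factor, by -1.98 and -2.15, each with siGFP above the range at 0 h. *Cfap161*, a protein of cilia, differed by -2.34 and -2.69, *Fam71e1* by -2.58 and -1.54, *Vav1* by -1.15 and -1.54, *Rsph1*, a protein of cilia, by -1.11 and -1.66, and *G730013B05Rik* by -1.24 and -1.21, each with siGFP inside it. *Cp*, the copper carrier ceruloplasmin, differed by -2.29 and -1.18, *Mypn*, a muscle protein, by -1.64 and -1.29, and *Apoa4*, an apolipoprotein, by -1.14 and -1.63, each with siGFP below it. Over all named genes the siGFP array lay outside the range at 0 h in 50.6%.

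Genes near the limit of 2-fold were as follows. Just inside it among the higher genes were *Tmf1* (1.04 and 1.21), *Trp53cor1* (1.84 and 1.00) and *Prokr1* (1.21 and 1.00), and just outside it were *Zbtb42* (1.61 and 0.97), *6820426E19Rik* (1.62 and 0.94) and *A530040E14Rik* (0.94 and 1.5). Among the lower genes *Notch4* (-1.23 and -1.02), *Marchf6* (-1.65 and -1.05) and *Oosp2* (-1.11 and -1.07) stood just inside, and *9130227L01Rik* (-0.97 and -1.26), *Pdk1* (-0.94 and -1.16) and *Arsg* (-0.98 and -0.94) just outside.

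**Figure D4:**
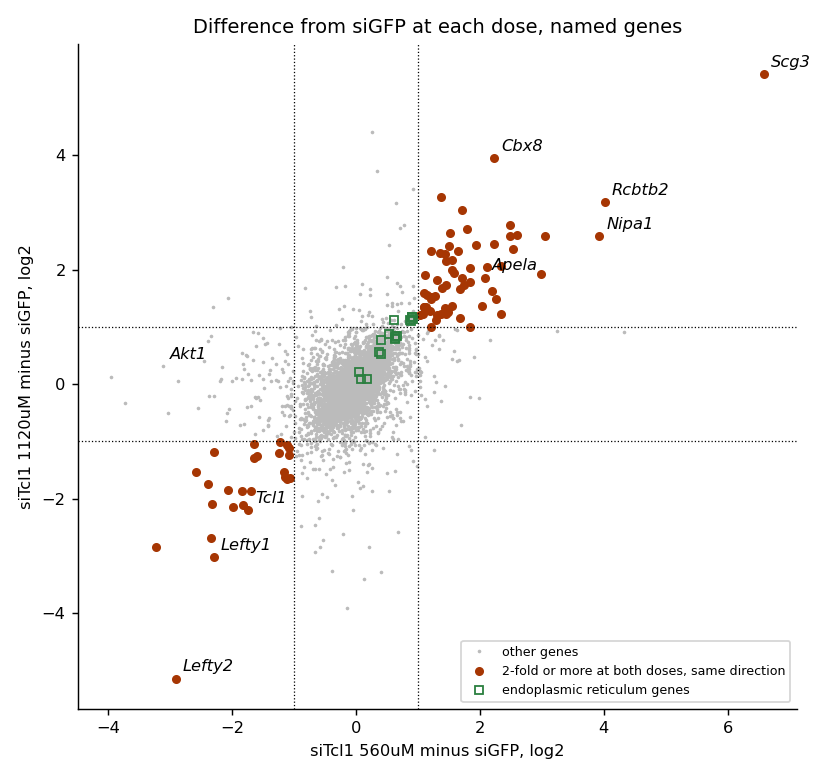
Difference from siGFP in log2 for each of 8973 named genes, with siTcl1 560uM on the x axis and siTcl1 1120uM on the y axis; dotted lines mark 2-fold, filled points the 62 higher and 26 lower genes, and squares the 17 ER genes. Both axes hold the same siGFP array. All 17 ER genes lie above 0 on both axes, and none passes 2-fold at 560uM.

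Between both doses, a comparison that leaves siGFP out, 158 named genes (1.76%) were higher and 124 (1.38%) were lower by 2-fold or more with siTcl1 1120uM over siTcl1 560uM. The standard deviation of this difference over genes was 0.40, against 0.39 and 0.43 for the differences of siTcl1 560uM and of siTcl1 1120uM from siGFP. The arrays of both doses thus differed from each other about as much as each did from siGFP. In 6 of the 10 genes with the widest gaps between the doses, a single low reading on a siTcl1 array made the gap. *Gm19277* and *Hoxd11* were at -4.10 and -3.53 with siTcl1 560uM, against -0.03 and -0.13 with siTcl1 1120uM and -0.15 and 0.19 with siGFP. *Rtl6* and *Slc25a44*, a mitochondrial carrier, were at -4.01 and -3.18 with siTcl1 1120uM, against -0.25 and 0.34 with siTcl1 560uM and -0.10 and 0.22 with siGFP. *Nhlrc3* had a single high reading, 3.41 with siTcl1 560uM, against 0.01 with siTcl1 1120uM and -0.91 with siGFP.

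To see whether the genes that moved at both doses also moved when Oct3/4 was shut off, their values were read in ZHBTc4 cells at 48 h, which share no array with EB5 cells. Of the genes from the EB5 arrays, 29 of the 62 higher and 9 of the 26 lower ones could be followed. Of the 29, 3 were higher, 5 were lower and 21 were not called at 48 h over 0 h (limma, Benjamini-Hochberg adjusted p under 0.05 over 20650 features, n = 3). Of the 9, 1 was higher, 4 were lower and 4 were not called. Among all 4113 genes named on both kinds of array, 932 (22.7%) were higher and 1073 (26.1%) were lower. In a fit of all time points of ZHBTc4 cells the call of 5 of these 38 genes changed, with *Abca3*, *Calhm5* and *Efr3b* no longer called and *Morn1* and *Mypn* called lower, and a block for the replicate number in that fit changed none of the 38 calls.

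*Tcl1*, *Lefty1* and *Notch4*, which were lower at both doses of siTcl1, were also called lower when Oct3/4 was shut off. *Tcl1* was lower by 4.30, 4.29 and 4.44 on the log2 scale in the 3 ZHBTc4 samples (-4.34 ± 0.07, SE; limma adjusted p = 1.25e-06). *Lefty1* was at -3.33, -3.37 and -3.82 (-3.51 ± 0.16, SE; limma adjusted p = 2.30e-05). *Notch4* was at -2.33, -2.25 and -1.95 (-2.17 ± 0.13, SE; limma adjusted p = 5.94e-05). *Lefty2*, *Apela* and *Glb1l2* had no oligo with that name alone on these arrays. *Cbx8* and *Tmf1*, a Golgi protein, were higher in both systems, with 1.15 ± 0.19 (SE; limma adjusted p = 0.0050) for *Cbx8* and 1.21 ± 0.14 (SE; limma adjusted p = 0.00093) for *Tmf1* in ZHBTc4 cells. For *Tmf1*, however, the EB5 levels of -0.38 (siTcl1 560uM), -0.21 (siTcl1 1120uM) and -1.42 (siGFP) all lay inside a wide range at 0 h (-3.43 to 1.78). For *Cbx8* the levels of -4.88 (siGFP) and -2.66 (siTcl1 560uM) both lay below the range at 0 h (-2.36 to -1.28). *Tcl1*, *Lefty1*, *Notch4*, *Cbx8* and *Tmf1* were called with all time points under the block and with each ZHBTc4 replicate left out. The other 8 called genes were not called under at least 1 of these settings. Fitted without the ZHTc6 samples, 4 of the moved genes were higher and 4 were lower, against 4 and 9 in the main fit. With the Cy3 arrays alone 2 were higher and 5 lower, and with the Cy5 arrays alone 4 and 9. With names from the annotation alone, which follow fewer genes, 1 was higher and 4 were lower. *Cbx8* and *Tmf1* were thus not both called higher under these names. *Cdkn1b*, higher with siTcl1, was lower at 48 h (-0.67 ± 0.15, SE; limma adjusted p = 0.018), and was not called without replicate 2 (adjusted p = 0.070) or without replicate 3 (adjusted p = 0.067). *Bmp2k*, *Calhm5*, *Efr3b* and *Sec22b* were also higher with siTcl1 and called lower at 48 h, with -0.68 ± 0.13 (SE, limma adjusted p = 0.0096) for *Sec22b*. *Rsph1*, lower with siTcl1, was called higher at 48 h (0.45 ± 0.09, SE, limma adjusted p = 0.010).

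**Figure D5:**
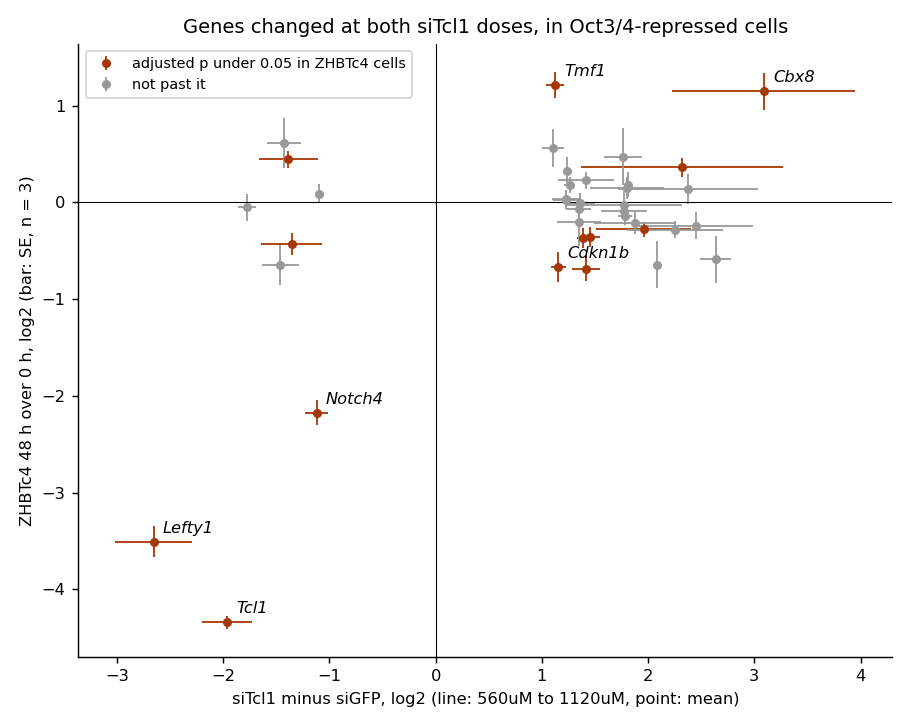
The 38 genes that moved by 2-fold at both doses and were named on both kinds of array: x axis, log2 difference of siTcl1 from siGFP as the mean of both doses with a line between them; y axis, log2 of ZHBTc4 cells at 48 h over 0 h with its SE (n = 3). *Tcl1*, *Lefty1* and *Notch4* lie low on both axes, and most of the 29 genes on the right lie within 1 of 0 on the y axis.

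The gene groups are set side by side for both systems, although no test sets one against the other. Among all 4113 genes named on both kinds of array, 22.7% were called higher and 26.1% lower in ZHBTc4 cells at 48 h. Pluripotency genes had medians of -0.21 (siTcl1 560uM) and -0.33 (siTcl1 1120uM) over 39 genes, against a median of -1.61 in ZHBTc4 cells at 48 h, where 29 of 33 were lower. Trophoblast genes had medians of -0.12 and -0.03 over 32 genes with siTcl1, against 1.62 in ZHBTc4 cells, where 19 of 26 were higher. The chaperone list had medians of 0.40 and 0.56 over 29 genes with siTcl1, against 0.36 in ZHBTc4 cells, where 10 of 16 were higher and 3 were lower. In these cells *Hspa5* was higher by 0.84 ± 0.13 (SE; limma adjusted p = 0.0032) and *Pdia3* by 1.62 ± 0.16 (SE; limma adjusted p = 0.00056). Amino acid stress genes had medians of -0.25 and -0.03 with siTcl1, against -1.36 in ZHBTc4 cells, where 26 of 30 were lower.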

How the data were processed

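Each array paired a sample in Cy3 with reference RNA in Cy5 (siRNA and 0 h samples) or a time point with 0 h in swapped dyes (time course). The authors deposited a log10 ratio of Cy5 over Cy3 per spot, bounded at -2 and 2, and the submitters' processing notes name Agilent Feature Extraction. Background and dye correction are thus in the values, with settings not given in the sources used here, and no intensities were used, so that weak signal could not be told from strong. Precision is limited by the number of arrays. The sign was turned and values were set to log2. Of 21446 oligos on the reference arrays, 163 were left out because over the share 0.5 of the arrays read a bound. Names came from the platform annotation, which gives 1 gene for 11813 oligos, several for 559 and none for 9074, and were updated through RefSeq. Oligos of a gene were averaged. A feature counted as moved at 2-fold in one direction at both doses.

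The dye-swapped pair of each time course sample was averaged. ZHBTc4 samples at 48 h after addition of Tet and ZHTc6 samples at 48 h after its withdrawal entered a single fit (limma 3.58.1 in R 4.3.3). The fit had a mean for each line and a shared estimate of the spread, and was tested against 0 and adjusted by Benjamini-Hochberg. Time course oligos were named from the annotation or, where it names none or several genes, from the tables of the study, which agreed for 1014 of 1210 oligos named by both. The samples are described as prepared independently. Time points of a number share their 0 h RNA by the labels, and their deviations correlated with 0.0984 to 0.511 in ZHBTc4 cells, against a median of -0.161 between numbers.

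Genes were named by rule: *Tcl1* and the Akt list, the genes that the study names for these arrays, the 20 with the largest differences each way, the 10 with the largest gap between the doses, and up to 6 members of each of 26 lists. Further genes given with values, *Derl3*, *Nog*, *Aplnr* and those near the limit among them, were chosen after their values were seen. The lists and the comparison were chosen with earlier results of these data known. The counts of features moved at both doses were recomputed with single oligos, other centring, scaling, fold, names and oligo choices. List medians and the difference of *Tcl1* were recomputed with centring, scaling and the first oligo of a gene. Counts by direction, by order of the doses and against the range at 0 h were made in the main setting only. The test in ZHBTc4 cells was repeated without each replicate, with a replicate block and by dye. The code was tested on simulated data. Plots used matplotlib 3.10.9.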

Additional observations from a re-analysis of the deposited data

Results flagged for a closer look

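Named genes that moved by 2-fold or more in opposite directions at the doses of siTcl1 are given as values. *Ibsp*, a bone matrix protein, had levels of -3.19 (siTcl1 560uM), 0.37 (siTcl1 1120uM) and -1.13 (siGFP), a gap of 3.55 between the doses. *Lcn2*, a secreted lipocalin, had levels of -5.21, -1.55 and -2.90 in the same order, a gap of 3.66. *Zfp277*, a zinc finger protein, had levels of 1.24, -1.16 and -0.02, a gap of -2.41 (1120uM minus 560uM). With 1 array per condition the difference between the doses was not tested for any of them.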

How the results depend on the processing

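The counts of 274 higher and 75 lower features were within 1.5 times of these when single oligos were counted, arrays were centred or scaled, oligos at 0 or at the bound were left out, the first oligo of a gene was used, or each oligo of a gene had to move. At 1.5-fold they were 698 and 329, and among named genes alone 62 and 26. Scaling kept 62 of the 62 higher and 21 of the 26 lower named genes. The difference of *Tcl1* ran from -1.73 to -2.02 at 560uM and from -2.20 to -2.36 at 1120uM. List medians changed sign in 9 of 156 recomputations, all for lists within 0.03 of 0; the chaperone medians ran from 0.40 to 0.71 and the pluripotency medians from -0.42 to -0.22 at 560uM and from -0.45 to -0.34 at 1120uM, the lowest of both when arrays were scaled.

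In ZHBTc4 cells 2682 features were higher and 2694 were lower at 48 h (limma). With the replicate number as a block over all time points these were 2775 and 2751, and without the block 2701 and 2586. Fitted without the ZHTc6 samples they were 2210 and 2182. Of 38 genes from the EB5 arrays, 5 changed their call with all time points (*Abca3*, *Calhm5* and *Efr3b* lost, *Morn1* and *Mypn* gained), and the block changed none. With names from the annotation alone, 2525 in place of 4113 genes could be followed on both kinds of array, and of those that moved at both doses 1 was higher and 4 were lower at 48 h, against 4 and 9; this alternative was added after the data were seen. Leaving out a replicate gave 1607 to 2118 higher and 1607 to 2013 lower features, with 1607 higher and 1777 lower without replicate 2 and 1607 lower without replicate 3, with fewer samples to test.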
